A study of Mus musculus with 6 samples.

Results

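The genes described here encode the subunits of Mediator, RNA polymerase II (Pol II) and RNA polymerase III (Pol III) in HT22 cells, an immortalised mouse hippocampal neuronal line, with and without aluminum. They were taken by symbol (Med followed by a number, Polr2a to Polr2m and Polr3a to Polr3k) from the deposited table of gene expression, which gave 53 of 21878 gene symbols: 30 of Mediator, 13 of Pol II and 10 of Pol III. RNA was measured in 6 input libraries of an m6A immunoprecipitation experiment, that is, fragmented RNA before enrichment. There were 3 libraries from control cells (0 µM) and 3 from cells given 120 µM aluminum maltolate (Al) for 24 h, described in the study as biological replicates. The sample labels give only the letters C and M, which were read as control and aluminum maltolate from the series' design and are not spelled out there. The dose comes from the study's methods, where the 24 h are given for the treatments in general, while the design text gives a range of doses. The study's methods use the name control for cells in medium only and list a separate maltol group. No maltol libraries were analysed here, so an effect of the ligand and an effect of the metal cannot be told apart. The study's methods name no genetic modification of the cells used for sequencing. The immunoprecipitated libraries were not analysed here.

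Mediator is the large coactivator that connects DNA-bound transcription factors with Pol II at promoters. Its head and middle modules contact the polymerase, the tail receives most activators, Med14 forms the scaffold between them, and a detachable module with Cdk8 or Cdk19, cyclin C, Med12 and Med13 governs whether the polymerase can bind. Pol II transcribes the protein-coding genes, whereas Pol III makes tRNAs, 5S ribosomal RNA and other short RNAs, and both are built from a pair of large catalytic subunits, a set of small subunits of their own and a few small subunits shared with Pol I.

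Expression is given as scaled FPKM, the FPKM (fragments per kilobase of gene, normalised to the reads of the library) divided by a size factor for each library, so that levels can be compared between genes per unit of length. The FPKM rest on 38059492, 43422481 and 44556768 reads per control library and on 26670978, 21857904 and 21125631 reads per Al library. A gene was called, and is written below as having risen or fallen, at a Benjamini-Hochberg adjusted P under 0.05 from limma and an absolute log2 fold change over 0.58. Among the 12889 genes tested, 49.2% were called, 25.5% as higher and 23.7% as lower. The Al libraries did not overlap the control libraries, above or below, for 68.1% of them. Of the neuronal markers checked, Tubb3 was above 1 FPKM in every library and Eno2 in every library except Al replicate 1, while Map2 and Rbfox3 were at or near 0 and Nefm and Snap25 were at 0 in every library. The summed FPKM of 4 astrocyte markers was 13.9 to 23.0 in the control and 1.51 to 2.61 in the Al libraries, nearly all of it Slc1a3 with Aqp4 at 0 in every library, and its part in the results below was not tested. Markers of microglia, oligodendrocytes and endothelium summed to at most 1.49 FPKM per list and library. Among them Cx3cr1 (mean FPKM 0.0665 in control and 0.542 in Al libraries) and Pecam1 (0.058 and 0.211) were called higher, and none was called lower. Al replicate 3 was the Al library nearest to the control values for 54.7% of the 6344 called genes.

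Of the 53 subunit genes, 52 passed the filter on low values, and 22 rose, 6 fell and 24 were not called. Of these 24, 10 had an adjusted P below 0.05 and missed only the fold change threshold. Med12l, a paralogue of Med12, was below the filter with 1 to 16 reads per library. In Mediator 13 of 29 tested genes rose (44.8%, against 25.5% of all genes) and 2 fell (6.90%, against 23.7%). In Pol II 8 of 13 rose (61.5%) and 1 fell, and in Pol III 1 of 10 rose (10%) and 3 fell (30%). The median log2 fold change was 0.44 in Mediator, 0.88 in Pol II and -0.09 in Pol III, against 0.03 over all tested genes. All Al values exceeded all control values for 29 members (35.1% of all tested genes did so) and were below all of them for 12 (33.1% of all tested genes), and the groups overlapped for 11. Al replicate 3 was nearest to the control values for 24 of the 28 called members, and without it the counts were again 22 that rose and 6 that fell.

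**Figure D1:**
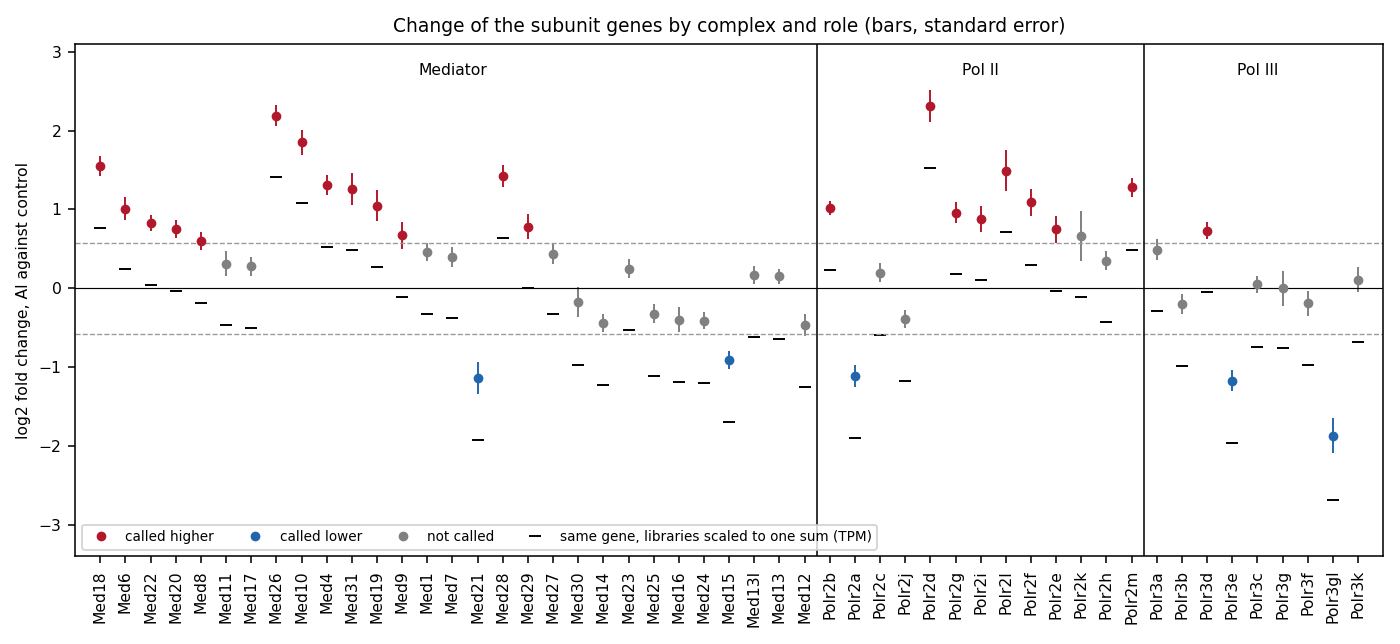
Log2 fold change of the tested subunit genes (vertical axis, Al against control, points with standard error), grouped by complex and by role, with the calling threshold of 0.58 in either direction dashed. The head and middle subunits of Mediator and the small subunits of Pol II lie mostly above 0, while Polr2a, Polr3gl and Polr3e lie below it, and the short bars give the same genes after scaling each library to an equal sum, which lowers the median of all genes by 0.77.

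These directions depend on how the libraries are brought to a common scale. With FPKM as deposited the median over all genes moved by -0.46 (log2), and 10 members rose and 15 fell, where 13.5% of all genes rose and 41.3% fell. With each library scaled to an equal sum (TPM) that median moved by -0.77, and 6 members rose and 21 fell (8.84% and 52.3% of all genes). With quantile normalization 21 rose and 7 fell (21.5% and 23.3% of all genes), and with upper-quartile scaling 19 rose and 8 fell (21.3% and 28.7%). FPKM as deposited, TPM and upper-quartile scaling shift all genes of a library alike, so that the distance of a complex from the median of all genes is fixed under them. That distance was 0.41 for Mediator, 0.85 for Pol II and -0.13 for Pol III as reported, and 0.52, 0.53 and 0.08 with quantile normalization, where Mediator and Pol II stood level. Med10, Med18, Med26, Med28, Polr2d and Polr2l rose, and Med15, Med21, Polr2a, Polr3e and Polr3gl fell, under every scaling and every other alternative run, except that Med15 did not pass a log2 fold change threshold of 1. With TPM no other member was called as risen, and with FPKM as deposited only Med4, Med31, Polr2f and Polr2m were, besides these 6, so that the other rises among the members were lost under both.

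The head of Mediator, which includes the movable jaw of Med18 and Med20, had 5 of 7 subunits that rose and none that fell, but 1 rose with FPKM as deposited or TPM. Scaled FPKM of Med18 was 9.47, 8.23 and 9.45 in control and 27.9, 30.2 and 22.4 in Al libraries. All Al values lay above the control values, and the log2 fold change was 1.55 ± 0.13 (SE), or 2.93-fold, with an adjusted P of 2.96e-05. Med6, Med22, Med20 and Med8 were the other head subunits that rose, with log2 fold changes from 0.60 to 1.01. Med6, Med22 and Med20 lost their calls with FPKM as deposited and with TPM, and Med8 under each of the 4 other scalings. Med11 and Med17 were at 0.31 ± 0.16 and 0.28 ± 0.12 (SE) and did not pass the test.

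The middle module had 6 of 9 subunits that rose and 1 that fell (4 and 1 with FPKM as deposited, 2 and 1 with TPM), and it held the Mediator genes with the largest changes. Med26, the subunit that links Mediator to TFIID and to elongation factors, was at 7.50, 8.06 and 7.21 scaled FPKM in the control libraries and at 40.2, 35.8 and 29.6 in the Al libraries. This was the largest rise among the Mediator genes, 4.56-fold (log2 2.19 ± 0.13, SE, adjusted P = 7.59e-06). Med10, a conserved middle subunit, went from 5.81, 6.17 and 6.96 to 25.7, 26.6 and 17.7 scaled FPKM, a 3.61-fold rise with an adjusted P of 3.57e-05. On the opposite strand, Gm26819 overlaps 92.8% of the exon bases of Med10 in the GENCODE annotation of GRCm38. Since the strand setting of the counting is not stated, reads of the 2 genes may not have been told apart.

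Med4 and Med31, further subunits of the middle module, rose 2.48-fold and 2.40-fold. Scaled FPKM of Med4 was 6.84, 6.74 and 9.02 in control and 18.6, 18.3 and 19.0 in Al libraries (adjusted P = 5.65e-05). Med31 was at 3.42, 4.87 and 4.84 in control and 12.2, 11.8 and 8.13 in Al libraries (adjusted P = 0.000643). In neither gene did the groups overlap, but the processed pseudogene Gm9434 matches 60.7% of a Med4 transcript at 96.7% identity, so its value is uncertain, and 4930563E22Rik overlaps 26.3% of the exon bases of Med31 on the opposite strand. Med19 and Med9 also rose (log2 1.05 and 0.67), while Med1, the contact of nuclear receptors, at 0.46 ± 0.11 and Med7 at 0.40 ± 0.13 (SE) stayed under the fold change threshold with adjusted P values of 0.00531 and 0.0214.

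Med21, which pairs with Med7 in the hinge of the middle module, went the other way. It was at 10, 15.8 and 15.7 scaled FPKM in the control libraries and at 6.11, 5.04 and 7.29 in the Al libraries, a 2.21-fold fall (log2 -1.14 ± 0.20, SE, adjusted P = 0.00127). All Al values lay below the control values, of which replicate 1 was the lowest. The log2 fold change ranged from -1.37 to -1.0 when each library was left out in turn. The count of reads behind these values was 353 to 645 in control and 70 to 112 in Al libraries.

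The subunits that structures place in either the head or the tail were split. Med28 rose 2.67-fold from 6.95, 7.09 and 9.50 to 21.7, 21.7 and 19.4 scaled FPKM (adjusted P = 5.25e-05), and Med29 rose 1.72-fold, a call that was lost with FPKM as deposited (log2 0.30) and with TPM (0.00). Med27 at log2 0.44 ± 0.13 (SE, adjusted P = 0.0181) missed only the fold change threshold, and Med30 at -0.18 ± 0.19 (SE, adjusted P = 0.416) did not pass the test.

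None of the 5 tail subunits, the 3 tested Med genes of the kinase module or the scaffold rose, and of these 9 genes 1 fell. With FPKM as deposited 6 of the 9 fell, with TPM 8 and with upper-quartile scaling 3. The gene that fell as reported was Med15, the tail subunit contacted by activators such as SREBP, at 22.8, 22.4 and 24.9 scaled FPKM in control and 12.1, 11.1 and 13.9 in Al libraries. The groups did not overlap, and the fall was 1.88-fold (log2 -0.91 ± 0.11, SE, adjusted P = 0.000166). Med16, Med24 and Med25 had log2 fold changes from -0.41 to -0.32 with Al values below every control value, and Med23 was at 0.25 ± 0.12 (SE). Med14, on which the modules assemble, was at 10.2, 8.60 and 9.16 in control and 6.50, 6.74 and 7.24 in Al libraries, a log2 fold change of -0.44 ± 0.11 (SE, adjusted P = 0.00894) that did not reach the threshold of 0.58.

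Of the kinase module, the 3 tested Med genes gave no call as reported. All 3 fell with TPM, and Med12 also fell with FPKM as deposited (log2 -0.95) and with upper-quartile scaling (-0.61). Med12, which activates the kinase, was at 12.6, 11.8 and 14.1 scaled FPKM in control and 8.17, 8.78 and 11.1 in Al libraries (log2 -0.46 ± 0.14, SE, adjusted P = 0.0171). Med13 and its paralogue Med13l, which tether the module to the core, were at 0.15 ± 0.10 and 0.17 ± 0.11 (SE), and both turned negative (-0.64 and -0.62) when each library was scaled to an equal sum. The ratio of the FPKM of Med13 to that of Med13l needs no scaling between libraries. It was 0.703, 0.679 and 0.676 in control and 0.701, 0.676 and 0.649 in Al libraries, so that the groups overlapped.

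The kinases of the same module did not keep such a ratio. Cdk19 fell 1.81-fold, from 6.76, 6.22 and 6.38 to 3.26, 3.64 and 3.67 scaled FPKM (adjusted P = 0.000398), whereas its paralogue Cdk8 was at 13.0, 14.4 and 14.9 in control and 14.5, 14.9 and 16.7 in Al libraries (log2 0.12 ± 0.11, SE). The ratio of Cdk8 to Cdk19 was 2.19 ± 0.235 in control and 4.36 ± 0.237 in Al libraries (SD, n = 3 each), without overlap.

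**Figure D2:**
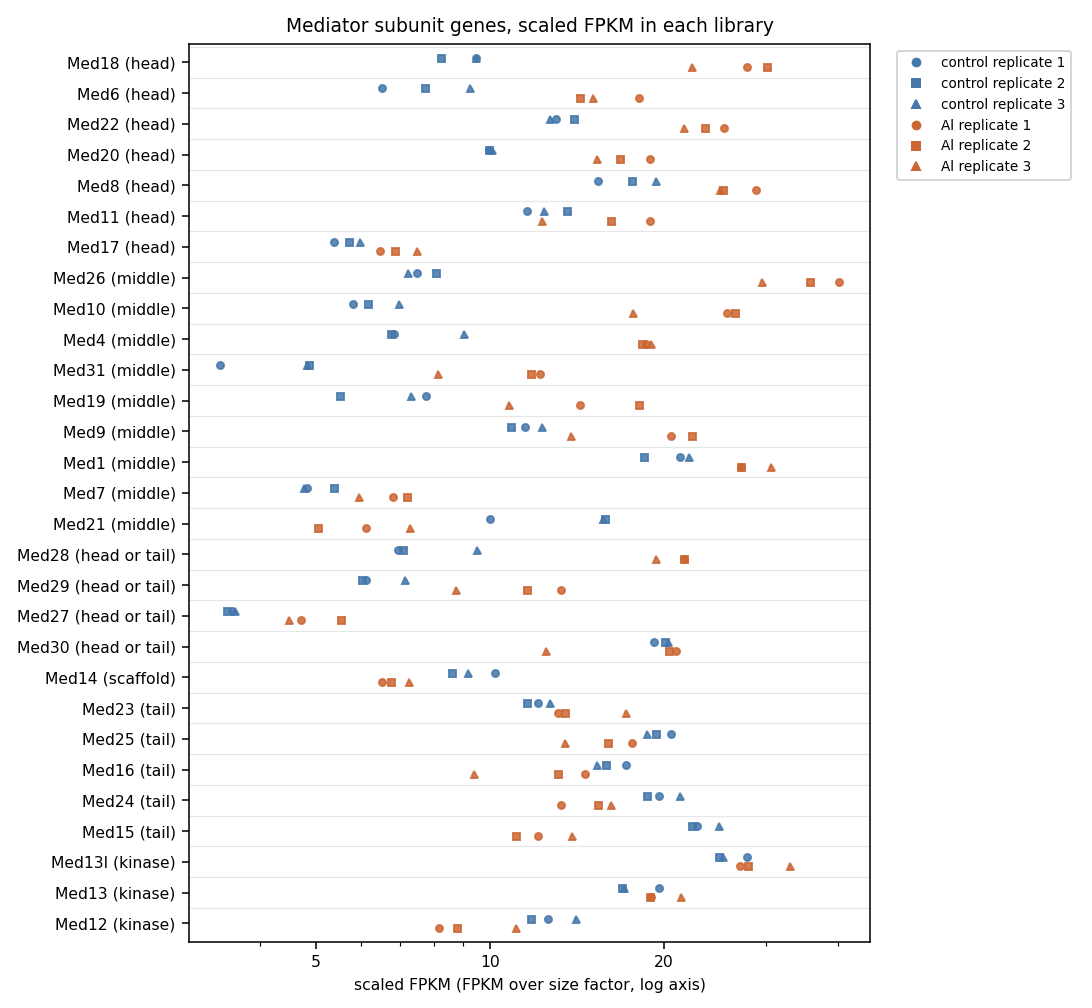
Scaled FPKM (horizontal log axis) of the 29 tested Mediator genes in each of the 3 control (blue) and 3 Al (orange) libraries, with marker shapes for the replicates and the module in brackets. The Al points of Med26 (29.6 to 40.2) stand to the right of its control points (7.21 to 8.06), and those of Med21 and Med15 stand to the left.

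The balance between the modules was also read within each library, where the scaling cancels. The mean log2 FPKM of the tail, scaffold and kinase module subunits minus that of the head and middle subunits was 1.02, 0.810 and 0.802 in control and -0.359, -0.308 and -0.0119 in Al libraries. The group means were 0.876 ± 0.121 and -0.226 ± 0.187 (SD, n = 3 each). All Al libraries lay below all control libraries, and Al replicate 3 was the nearest to them. The median gene length was 6696 bases for the tail, scaffold and kinase module genes (Med12l included) and 2092 for the head and middle genes. With length correction the median log2 fold changes of these 2 sets were -0.29 and 0.79, against -0.40 and 0.79 as reported. Med27 to Med30, of which 2 rose, were in neither set. The difference between the sets was chosen after the values had been seen. Neither it nor the part of length in it was tested.

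In Pol II the 2 catalytic subunits moved in opposite directions. Polr2a, the largest subunit, carries the active site together with Polr2b and bears the C-terminal repeat domain that is phosphorylated during transcription. It was at 92.9, 86.1 and 93.0 scaled FPKM in the control libraries and at 34.8, 41.3 and 51.3 in the Al libraries. The groups did not overlap, and the fall was 2.16-fold (log2 -1.11 ± 0.14, SE, adjusted P = 0.000222). The fall of Polr2a was called under each of the other scalings, with a log2 fold change of -1.60 for FPKM as deposited and -1.90 for TPM. Polr2b was at 31.8, 32.2 and 34.7 in control and 67.7, 69.0 and 63.1 in Al libraries, a 2.02-fold rise (log2 1.02 ± 0.09, SE, adjusted P = 3.98e-05). All Al values of Polr2b lay above the control values also in the FPKM as deposited (37.7 to 40.8 against 54.3 to 58.8), where its log2 fold change of 0.53 was just under the threshold, and with TPM it was 0.23.

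The ratio of Polr2a to Polr2b FPKM within a library was 2.92, 2.68 and 2.68 in control and 0.514, 0.599 and 0.814 in Al libraries. The order of the 2 genes was thus exchanged, with more Polr2a than Polr2b RNA per length in every control library and less in every Al library. Their sequences around the transcription start are shown because these genes are the part of the polymerase whose RNA levels parted. The windows run from 250 bases before to 50 bases after the RefSeq start in GRCm38.p6, 5′ to 3′ along the gene, at chr11:69758584-69758883 (minus strand) for Polr2a and chr5:77310234-77310533 (plus strand) for Polr2b. Capitals mark matches to the motifs searched on both strands: the TATA box (TATAAA), the CCAAT box, the ETS motif (CCGGAA), the GC box (GGGCGG), the E-box (CACGTG), the CRE core (TGACG), the NRF1 core (GCGCATGC) and the YY1 motif (AAGATGGC).
Polr2a: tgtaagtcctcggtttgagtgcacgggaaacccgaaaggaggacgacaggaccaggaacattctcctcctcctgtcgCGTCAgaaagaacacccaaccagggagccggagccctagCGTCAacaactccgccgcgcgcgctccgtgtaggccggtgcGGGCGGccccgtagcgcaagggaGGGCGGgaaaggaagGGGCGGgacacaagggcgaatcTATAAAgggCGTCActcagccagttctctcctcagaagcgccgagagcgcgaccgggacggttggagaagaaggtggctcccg
Polr2b: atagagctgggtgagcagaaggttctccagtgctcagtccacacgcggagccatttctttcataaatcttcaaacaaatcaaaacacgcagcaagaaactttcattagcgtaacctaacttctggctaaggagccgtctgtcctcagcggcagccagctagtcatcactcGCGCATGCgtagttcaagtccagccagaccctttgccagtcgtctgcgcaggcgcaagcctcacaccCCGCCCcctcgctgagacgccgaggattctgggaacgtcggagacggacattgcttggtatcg
The window of Polr2a held a TATA box, 3 GC boxes and 3 CRE cores, and that of Polr2b held an NRF1 core and a GC box and no TATAAA. Over the 49 RefSeq windows of 43 members with an entry, 49.0% held CCGGAA, 61.2% GGGCGG, 12.2% GCGCATGC and 10.2% TATAAA, against 14.9%, 35.7%, 2.71% and 13.6% of all 32851 windows. The other motifs were CCAAT (34.7% against 37.4%), CACGTG (14.3% against 7.15%), TGACG (30.6% against 20.8%) and AAGATGGC (2.04% against 2.75%). The median number of CpG dinucleotides was 20 in the members' windows and 7 in all windows, and the GC box, ETS, E-box, CRE and NRF1 letters contain CpG. A match is a description of the letters and was not measured as binding.

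Around the catalytic pair, 6 of the 10 small Pol II subunits rose and none fell. With FPKM as deposited 3 rose and 1 fell, with TPM 2 and 2, with quantile normalization 3 and 1, and with upper-quartile scaling 6 and 0. Polr2d and Polr2g form the stalk that guides the emerging RNA. Polr2d had the largest rise of all 52 members, from 16.7, 14.1 and 19.7 to 97.4, 97.9 and 60.5 scaled FPKM, or 4.97-fold (log2 2.31 ± 0.20, SE, adjusted P = 3.19e-05). Al replicate 3 was the lowest Al library, still above every control library. Polr2g rose 1.95-fold, and the ratio of Polr2d to Polr2g went from 0.382 ± 0.0701 to 0.975 ± 0.160 (SD, n = 3 each), without overlap between the groups.

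Of the 5 small subunits shared by Pol I, II and III, 3 rose, Polr2l, Polr2f and Polr2e. Polr2l was at 21.9, 18.3 and 18.6 in control and 77.3, 63.5 and 34.1 scaled FPKM in Al libraries (2.81-fold, adjusted P = 0.00120). Polr2f was at 78.6, 93.0 and 97.2 in control and 213, 220 and 147 in Al libraries (2.13-fold, adjusted P = 0.000708). In both genes Al replicate 3 had the lowest Al value, and the groups did not overlap. Polr2e rose 1.68-fold, Polr2h at log2 0.35 ± 0.12 did not reach the threshold, and Polr2k at 0.66 ± 0.32 (SE, adjusted P = 0.0998) had overlapping groups. Polr2h and Polr2k have near-identical copies (Gm7511 and Gm46136), so their values are uncertain.

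Polr2i, which lies in the jaw of the enzyme, rose 1.84-fold, with 26.8% of its exon bases overlapped by Tbcb on the opposite strand. Polr2c and Polr2j are the pair on which the polymerase is assembled. Polr2c did not pass the test (log2 0.20 ± 0.12, SE). Polr2j had Al values below every control value and missed only the fold change threshold (log2 -0.39 ± 0.12, SE, adjusted P = 0.0220), and it was called lower with FPKM as deposited (-0.88), TPM (-1.18) and quantile normalization (-0.76). Polr2m encodes a protein that binds Pol II and is not one of its core subunits. It rose from 69.2, 71.4 and 81.4 to 188, 187 and 164 scaled FPKM, or 2.42-fold (adjusted P = 3.96e-05), without overlap.

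**Figure D3:**
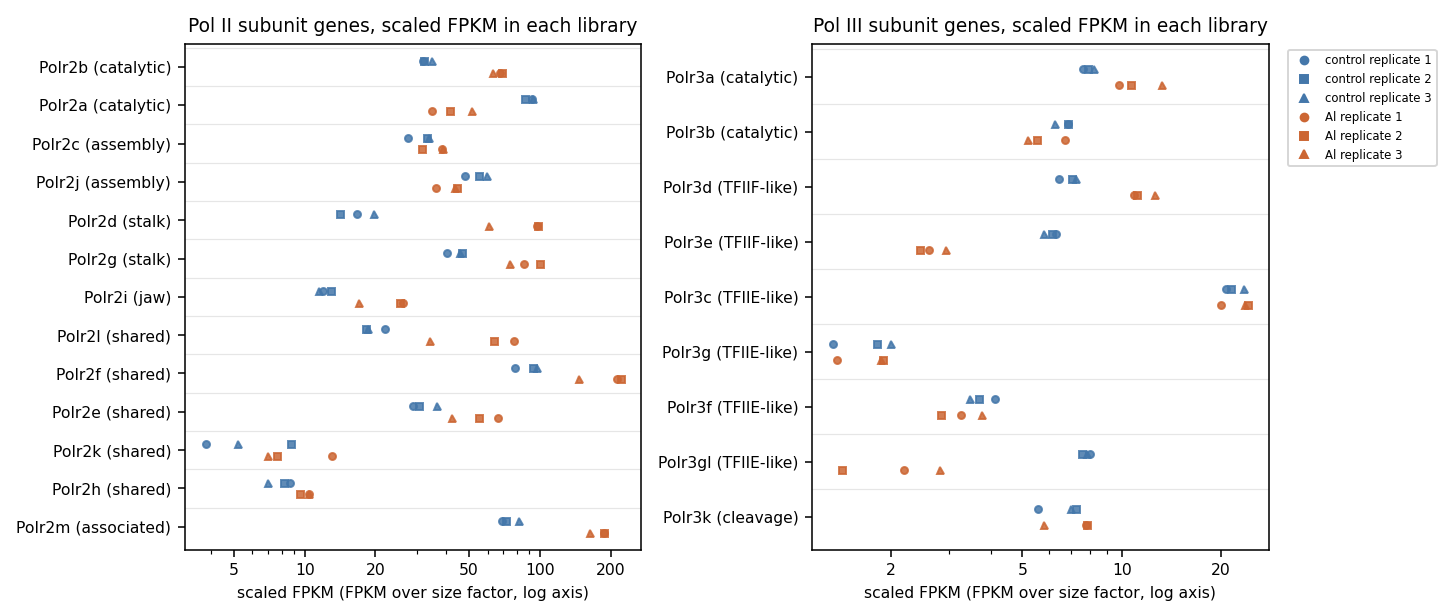
Scaled FPKM (horizontal log axis) of the 13 Pol II genes (left) and 9 Pol III genes (right) in each of the 3 control (blue) and 3 Al (orange) libraries, with the role of the subunit in brackets. Polr2a lies to the right of Polr2b in the control libraries (86.1 to 93.0 against 31.8 to 34.7) and to the left of it in the Al libraries (34.8 to 51.3 against 63.1 to 69.0).

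Within a library, the mean log2 FPKM of the 2 catalytic subunits of Pol II minus that of the 10 small subunits was 1.26 ± 0.111 in control and 0.379 ± 0.343 in Al libraries (SD, n = 3 each), with all Al libraries below all control libraries. The median gene length was 5274 bases for the catalytic and 938 for the small subunits. The change of -0.88 between the group means was -0.75 with length correction. The catalytic genes differed in their share of this change. Polr2a minus the small subunits went from 1.99 ± 0.142 to 0.0466 ± 0.511, whereas Polr2b minus the small subunits was 0.529 ± 0.0854 in control and 0.711 ± 0.175 in Al libraries, with overlapping groups.

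In Pol III Polr3d was the 1 gene called as risen, 3 genes fell and 6 were not called. The catalytic subunits gave no call as reported. Polr3a was at 7.65, 7.88 and 8.21 scaled FPKM in control and 9.82, 10.7 and 13.2 in Al libraries, above every control value but under the threshold (log2 0.49 ± 0.13, SE, adjusted P = 0.00964). It passed the threshold without Al replicate 1 and with quantile normalization (log2 0.59 in both), where 2 Pol III genes rose, and was at -0.29 with TPM. Polr3b was at 6.85, 6.88 and 6.28 in control and 6.73, 5.54 and 5.20 in Al libraries, and the groups overlapped (log2 -0.20 ± 0.13, SE). It was called lower with FPKM as deposited (log2 -0.68) and with TPM (-0.98). The ratio of Polr3a to Polr3b was 1.12, 1.15 and 1.31 in control and 1.46, 1.94 and 2.54 in Al libraries, without overlap.

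Polr3g and Polr3gl encode alternative forms of the same subunit of the TFIIE-like part, which opens the promoter, and a polymerase holds either form. Polr3gl was at 8.03, 7.58 and 7.82 scaled FPKM in control and 2.19, 1.42 and 2.81 in Al libraries. The fall of 3.66-fold was the largest among the members (log2 -1.87 ± 0.22, SE, adjusted P = 0.000149), and it rests on 517 to 584 reads in control and 36 to 79 in Al libraries. Polr3g was at 1.33, 1.81 and 2.0 in control and 1.37, 1.89 and 1.86 in Al libraries, with a log2 fold change of 0.00 ± 0.22 (SE) that was -0.76 with TPM. The ratio of Polr3gl to Polr3g within a library was 6.06, 4.20 and 3.91 in control and 1.60, 0.749 and 1.51 in Al libraries. Polr3gl RNA was thus above Polr3g RNA per length in every library except Al replicate 2.

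The windows around the starts of these paralogues are shown because their RNA levels parted, as for the catalytic pair above. They lie at chr13:81710964-81711263 (minus strand) for Polr3g and chr3:96594132-96594431 (minus strand) for Polr3gl in GRCm38.p6, with capitals for the same motifs.
Polr3g: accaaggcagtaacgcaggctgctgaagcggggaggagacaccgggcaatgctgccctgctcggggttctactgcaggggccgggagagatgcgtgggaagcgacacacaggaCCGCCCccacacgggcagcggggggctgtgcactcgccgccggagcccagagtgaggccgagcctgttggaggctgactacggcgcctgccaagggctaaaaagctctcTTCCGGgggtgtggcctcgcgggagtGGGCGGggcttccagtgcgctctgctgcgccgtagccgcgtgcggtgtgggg
Polr3gl: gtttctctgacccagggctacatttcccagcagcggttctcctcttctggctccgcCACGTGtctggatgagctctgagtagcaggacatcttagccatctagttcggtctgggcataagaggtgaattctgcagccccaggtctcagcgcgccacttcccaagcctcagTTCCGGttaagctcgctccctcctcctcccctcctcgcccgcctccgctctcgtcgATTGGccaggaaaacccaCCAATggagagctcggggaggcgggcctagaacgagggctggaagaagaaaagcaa
The window of Polr3g held 2 GC boxes and an ETS match, whereas that of Polr3gl held an E-box, an ETS match and 2 CCAAT boxes and no GC box.

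Polr3d and Polr3e form the TFIIF-like part of the enzyme and went in opposite directions. Polr3e fell 2.24-fold, from 6.31, 6.14 and 5.83 to 2.61, 2.45 and 2.94 scaled FPKM (log2 -1.17 ± 0.13, SE, adjusted P = 0.000117). Polr3d rose 1.65-fold, from 6.45, 7.07 and 7.27 to 10.9, 11.1 and 12.6 (adjusted P = 0.000593), a call that was lost with FPKM as deposited (log2 0.24), TPM (-0.05) and upper-quartile scaling. In neither gene did the groups overlap.

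Polr3c, Polr3f and Polr3k had log2 fold changes of 0.05, -0.19 and 0.11 with overlapping groups. All were called lower with TPM (-0.74, -0.97 and -0.68), and Polr3f also with FPKM as deposited (-0.67).

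For Pol III the result depended on which genes were counted as small subunits. The mean log2 FPKM of Polr3a and Polr3b minus that of the 8 small subunits with a Polr3 symbol was 0.152 ± 0.0688 in control and 0.708 ± 0.0369 in Al libraries (SD, n = 3 each), and the groups did not overlap. Pol III also holds the 5 subunits it shares with Pol I and II, of which 3 rose. With these added, as they are for Pol II above, the difference was -0.436 ± 0.0781 in control and -0.370 ± 0.112 in Al libraries, and with Polr1c, Polr1d and Crcp, further subunits of Pol III, it was -0.753 ± 0.0818 and -0.827 ± 0.128, with overlapping groups in both cases. For Pol II without the shared subunits the difference was 0.997 ± 0.0852 in control and 0.156 ± 0.251 in Al libraries, without overlap. The sets with added or left-out subunits were chosen after the values had been seen, and since the members were chosen as a set, these differences are given without a test.

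**Figure D4:**
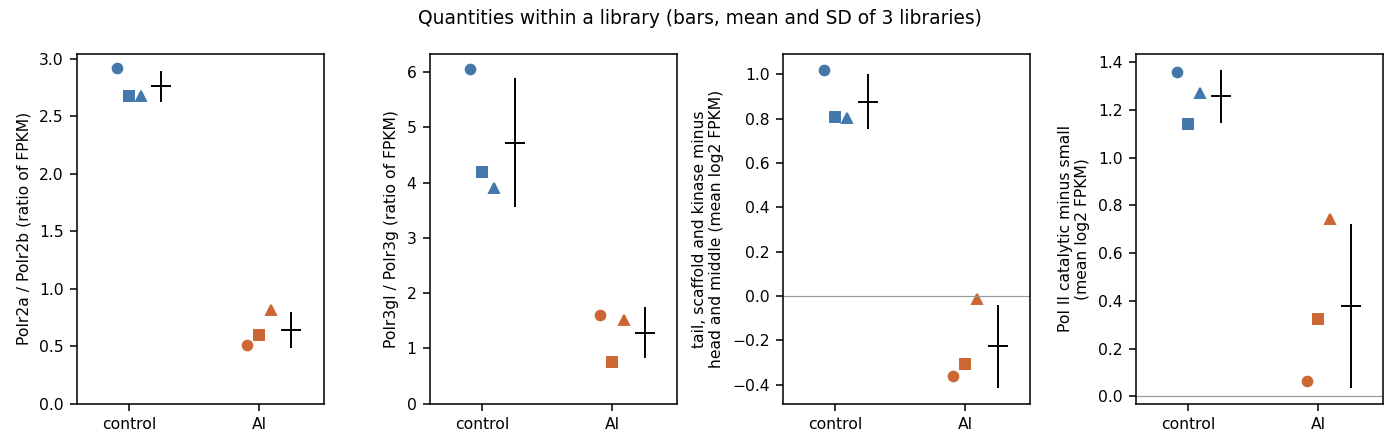
Quantities computed within each library, so that no scaling between libraries enters, for the 3 control (blue) and 3 Al (orange) libraries, with the mean and SD of each group. From left to right they are the ratio of Polr2a to Polr2b FPKM (2.68 to 2.92 against 0.514 to 0.814), the ratio of Polr3gl to Polr3g, the Mediator module difference and the Pol II catalytic minus small difference (1.26 ± 0.111 against 0.379 ± 0.343) in mean log2 FPKM.

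Gene length moved with the fold change, and its part in the results was not tested beyond the correction below. Over the 12883 tested genes with a recovered length, the Spearman correlation of log2 fold change with gene length was -0.16, and over the 52 members, which share the same 6 libraries, it was -0.32. The median log2 fold change of all genes was 0.45 in the shortest of 10 length bins (161 to 1211 bases) and -0.27 in the longest. With the median of each length bin removed in each library, 23 members rose and 6 fell, and the median log2 fold change was 0.45 for Mediator, 0.80 for Pol II and -0.09 for Pol III. Over the 52 members the correlation with the GC content of the transcript was -0.01.

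**Figure D5:**
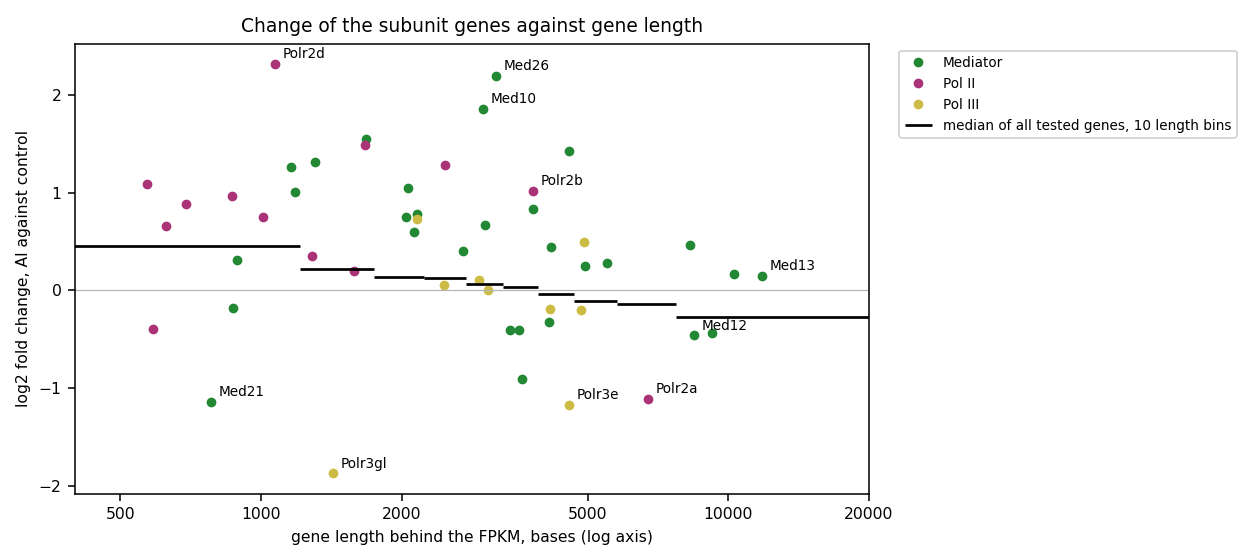
Log2 fold change of tested members (vertical axis, Al against control) against the gene length behind the FPKM (horizontal log axis, bases), colored by complex, with black lines for the median of all tested genes in 10 length bins. The lines run from 0.45 for the shortest genes to -0.27 for the longest, and Polr2d and Med26 lie above, Polr3gl and Med21 below, the line of their bin.

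The factors that work with these complexes were read from textbook lists of 113 genes tested, of which 36 rose (31.9%, against 25.5% of all genes) and 20 fell (17.7%, against 23.7%). With FPKM as deposited 16 rose and 43 fell. Among the 16 genes of TFIID, which recognizes the core promoter, 7 rose (43.8%) and 2 fell (12.5%). With FPKM as deposited 2 rose and 5 fell, and with TPM 1 and 6. Taf7 rose 8.08-fold, from 2.60, 2.95 and 2.65 to 27.7, 22.9 and 18.5 scaled FPKM (adjusted P = 4.93e-06), a larger log2 fold change than that of any subunit above. Taf11 rose 2.17-fold, while Taf12 and Taf6 fell 2.49-fold and 1.62-fold.

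In TFIIH, which opens DNA and phosphorylates Polr2a, 3 of 10 genes rose (30%, near the 25.5% of all genes) and 4 fell (40%, against 23.7%). The largest rises were those of Gtf2h1 (2.49-fold) and Gtf2h5 (1.85-fold). The largest falls were those of Gtf2h3 (2.15-fold) and the cyclin gene Ccnh (1.76-fold). In FPKM as deposited 1 rose and 5 fell, and in TPM 0 and 6, where 8.84% of all genes rose and 52.3% fell. Of the 7 genes of TFIIA, TFIIB, TFIIE and TFIIF, Gtf2f2 and Gtf2b rose by 0.73 and 0.60 on the log2 scale and Gtf2a1 fell by 0.99. That is 28.6% that rose and 14.3% that fell, against 25.5% and 23.7% of all genes. Both rises were lost with FPKM as deposited and had the opposite sign with TPM (-0.05 and -0.18).

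Of the 27 genes of pausing and elongation 7 rose (25.9%, near the 25.5% of all genes) and 4 fell (14.8%), whereas 5 rose and 9 fell with FPKM as deposited and 3 and 13 with TPM. Ccnt1 and Ccnt2, the cyclins of P-TEFb that release paused Pol II, rose 2.80-fold and 2.88-fold (adjusted P = 1.21e-05 and 1.98e-05), and the calls held under each other scaling. Nelfcd and Nelfe, subunits of the pausing factor NELF, fell 1.83-fold and 1.63-fold. Its other subunits Nelfa and Nelfb had scaled FPKM above every control library in all 3 Al libraries. Their log2 fold changes of 0.52 ± 0.13 and 0.58 ± 0.11 (SE) were not called. With FPKM as deposited they were 0.03 and 0.09, and with TPM -0.27 and -0.21. Of the 6 phosphatase genes that act on the C-terminal domain of Polr2a, 4 fell (66.7%, against 23.7% of all genes) and 1 rose (16.7%, against 25.5%). Ctdsp1 fell 2.69-fold, from 56.8, 56.2 and 55.5 to 16.5, 20 and 27.1 scaled FPKM, Rpap2 fell 2.08-fold and Ctdp1 rose 1.87-fold, a call that was lost with FPKM as deposited and with TPM.

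Of the 7 genes of polymerase assembly, Gpn1 (2.05-fold) and Pdrg1 (1.86-fold) were the largest of 3 rises, and Uri1 (3.09-fold) and Rpap1 (1.51-fold) fell. That is 42.9% that rose and 28.6% that fell, against 25.5% and 23.7% of all genes. All 3 rises were lost with FPKM as deposited and with TPM, where 2 and 3 genes fell. In Integrator, which cleaves nascent RNA at paused Pol II, 1 of 11 genes was called, Ints12 with a 2.16-fold rise (9.09%, against 25.5% of all genes that rose). A further 5 had an adjusted P below 0.05 without reaching the fold change threshold. Of the Integrator genes 1 rose and 6 fell with FPKM as deposited, and 0 and 8 with TPM. The factors of Pol III had 5 rises (29.4%, near the 25.5% of all genes) and 2 falls (11.8%, against 23.7%) among 17 genes. The counts were 4 and 6 with FPKM as deposited and 3 and 9 with TPM, where 8.84% of all genes rose and 52.3% fell. Gtf3c4, of the promoter factor TFIIIC, rose 3.13-fold and Brf2, which serves promoters of the U6 type, rose 2.63-fold, whereas Gtf3a, the factor for 5S genes, fell 2.36-fold and Maf1, the repressor of Pol III, fell 1.93-fold. Of 9 further polymerase genes, 8 of Pol I or shared by Pol I and III and Crcp of Pol III, 7 rose (77.8%, against 25.5% of all genes) and none fell. The largest rises were those of Cd3eap (5.90-fold) and Twistnb (2.43-fold), both subunits of Pol I. With FPKM as deposited 3 rose and none fell, and with TPM 1 rose and 1 fell. As these are bulk RNA levels, fewer cells expressing a gene and less RNA per cell cannot be told apart.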

How the data were processed

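The members, gene lists and tests were chosen with earlier results of these data known. Libraries were made with a stranded mRNA kit. The authors deposited FPKM values, 1 per gene symbol and library, from reads aligned with HISAT2. The study's methods name Trimmomatic, SortMeRNA and GRCm38, whereas the submitters' processing notes name fastp, HTSeq and GRCm39, and the strand setting is not given in the sources used here. Beyond the division by the reads of each library that FPKM holds, no scaling between libraries had been applied. Whole reads, library totals (21125631 to 44556768 reads) and gene lengths were recovered from the steps of the FPKM values for 17682 of 17688 genes above 0, all with a whole-number length within 0.001 base. For 16846 of them the length was whole at once. For the rest the reads were multiplied by the smallest number that made it whole.

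FPKM were divided by median-of-ratios size factors taken over genes detected in every library at a mean FPKM of 1 or more. limma 3.58.1 (lmFit, eBayes with trend, R 4.3.3) was run on log2(value + 0.1) for the 12889 genes whose mean FPKM reached 0.1, with Benjamini-Hochberg adjustment over all of them. Fold changes are on this scale. A call needed an adjusted P below 0.05 and a log2 fold change beyond 0.58 in either direction, the study's threshold for fold change.

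Genes were named by rule: the catalytic subunits, the paralogue pairs, up to 6 rises and 6 falls in Mediator, up to 4 and 4 in each polymerase, members below the filter, and up to 2 and 2 per list. Other subunits were named with their counts after their values had been seen, and the values of 1 Pol III subunit gene, which is included in the counts, are not reported here. Alternatives covered scaling, pseudocount, filter, trend, replicate block, length, voom on recovered reads, thresholds and left-out libraries. GC correction, the Mediator module difference, the Polr2a to Polr2b ratio and the other sets of small subunits were added after seeing the data. The other ratios of 2 genes, and the separate differences of Polr2a and Polr2b from the small subunits, were not set out beforehand. Gene overlaps and copies came from GENCODE on GRCm38. Tables were handled with Python 3.11.15 and pandas 2.3.3.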

Additional observations from a re-analysis of the deposited data

How the results depend on the processing

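Of the alternatives, TPM moved the counts of calls and the medians of the complexes furthest, apart from the count of Pol III rises. The differences between catalytic and small subunits depended less on the scaling. That of Pol II was -0.88 as reported, with FPKM as deposited, TPM and upper-quartile scaling, and -1.04 with quantile normalization. It ranged from -1.06 to -0.72 when each library was dropped in turn. That of Pol III, over the Polr3 small subunits, was 0.53 to 0.56 under every scaling. With FPKM as deposited, 6 Mediator, 4 Pol II and 0 Pol III genes rose and 8, 2 and 5 fell. With TPM the counts were 4, 2 and 0 against 10, 3 and 8. Quantile normalization gave 5 Pol II and 2 Pol III rises and 2 Pol II falls, and upper-quartile scaling gave 4 Mediator falls and 0 Pol III rises. The median log2 fold change of Mediator was -0.03, -0.33, 0.50 and 0.30 under these 4 scalings, that of Pol II was 0.40, 0.10 and 0.51 under the first 3, and that of Pol III was -0.56, -0.87, 0.06 and -0.24. Over all genes 1736 rose and 5321 fell with FPKM as deposited and 1140 and 6738 with TPM, and over the lists 16 and 43, then 8 and 59. With TPM the sign turned for 20 members, 5 of them reported as risen (Med8 at -0.19, Med9 at -0.11, Med20 and Polr2e at -0.03, and Polr3d), and among the genes named by rule for Cdk8 (-0.66), Gtf2b (-0.18), Gtf2f2 (-0.05), Med13 (-0.64), Med13l (-0.62), Polr3a (-0.29), Polr3d (-0.05) and Polr3g (-0.76). A fold change threshold of 1 left 8 Mediator, 5 Pol II and 0 Pol III rises, 1 Mediator fall, 2028 and 1784 of all genes and 19 and 6 of the lists. A pseudocount of 1 moved the Mediator median to 0.37 and the difference between catalytic and Polr3 small subunits of Pol III, 0.56, to 0.47, and length correction, with or without the replicate block, moved the latter to 0.63. GC correction, with or without the block, gave medians of 0.34 for Mediator and -0.17 for Pol III. The replicate numbers did not pair the libraries (correlations of same-numbered libraries -0.033, -0.026 and -0.073), and with the replicate block 22 members rose and 6 fell, as without it. Leaving out each library in turn gave 12 to 13, 8 to 9 and 1 to 2 rises and 2, 1 and 3 falls in Mediator, Pol II and Pol III, with medians of 0.37 to 0.49, 0.77 to 1.06 and -0.15 to -0.07. The 2 Pol III rises came without Al replicate 1. The causes of these shifts were not tested. Calls close to the threshold, such as that of Med8, and genes with few reads, such as Polr3gl with 36 in Al replicate 2, are the least certain.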
